A study of Danio rerio with 9 samples.

Results

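Zebrafish embryos exposed to the quinone benzanthracene-7,12-dione (BaAQ) were compared with embryos given the vehicle alone. The members of the comparison were the 3 BaAQ and 3 Control libraries, 6 of the 9 libraries of the series, taken by their labels. All genes with enough reads were tested, which left 18860 of the 32434 genes in the table.

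Each library is RNA from 1 vial of 20 whole wild-type 5D embryos collected at 48 hours post fertilization (hpf). The vials, holding 2 mL each, were on a rocker in darkness from 6 to 48 hpf. BaAQ embryos received 10 µM of the quinone, Control embryos received no compound, and every group carried 1% dimethyl sulfoxide (DMSO). A further group of 3 libraries received 10 µM of the ketone 1,9-benz-10-anthrone (BEZO) and entered here as a contrast to BaAQ and through the spread between replicates, which all 9 libraries share in the fit. The labels give an exposure temperature of 37 °C, which could not be checked against another source. They describe the vials as independent replicates from spawns on different days, without giving the day of a replicate.

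Polycyclic aromatic hydrocarbons and their oxygenated forms can bind the aryl hydrocarbon receptor (AHR), a transcription factor that switches on the CYP1 monooxygenases and its own repressor. Quinones can also take up electrons and react with thiols, which releases the transcription factor NRF2 from its adaptor KEAP1 and raises genes for glutathione and peroxide handling. At 48 hpf the zebrafish embryo still draws on its yolk, and its skin, cartilage, pigment cells, ionocytes and liver are being formed. Levels below are CPM (the share of a library's reads that fall on a gene, scaled up to a common library size) of the scaled library, in the order library 1, 2 and 3. Fold changes are log2 values of BaAQ over Control with their standard error (SE), and adjusted p-values come from edgeR's quasi-likelihood test with Benjamini-Hochberg adjustment over all tested genes. A gene is said to have risen or fallen where its adjusted p was under 0.05. CPM does not correct for gene length, so levels are compared between libraries and not between genes.

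The libraries held 8106613 to 14435626 reads, so that 3 reads, taken as the floor, correspond to 0.216 to 0.364 CPM. At this depth the precision of weakly expressed genes is limited by counting. BaAQ 3 stood somewhat apart. Of 10166 genes with at least 10 CPM on average, 71 were more than 1.5-fold above and 55 more than 1.5-fold below the mean of the other 2 BaAQ libraries in BaAQ 3. Each of the other 8 libraries of the series, set against its own group, had 8 to 38 above and 11 to 30 below.

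BaAQ changed 1929 genes. There were 909 genes that rose (4.82% of the tested genes) and 1020 that fell (5.41%). Most changes were small, with a median size of 1.43-fold among the genes that rose and 1.37-fold among those that fell. More than 2-fold changes were found for 144 genes that rose and 106 that fell, and more than 8-fold changes for 8 and 8. The 3 BaAQ libraries lay wholly above or below the 3 Control libraries for 881 and 995 of the changed genes; over all tested genes such non-overlap was found for 27.4%. Most genes named below were picked for a small p or for separate groups. Where their libraries are said not to overlap, this follows largely from that choice and adds no support. Leaving out single libraries gave 567 rises without Control 3, the lowest count, and 696 falls without BaAQ 3 or without Control 2, the lowest for falls. Without BaAQ 3 there were 688 rises.

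The genes that fell took a larger share of the reads than those that rose. Their summed level dropped from 159600 CPM in Control to 120600 CPM in BaAQ, while the genes that rose went from 36950 to 52390 CPM. Each set was chosen by its direction, so the direction of its sum follows from that choice. Over all tested genes the median log2 fold change was 0.0036, and 50.6% of genes had a positive value. The share of changes that were rises depended on the scaling: it was 47.1% here and 64.6% (1352 against 742 genes) with library totals alone, which shifted the median by 0.053.

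Without BaAQ 3, 600 of the genes that rose and 654 of those that fell still passed. The direction was kept by 908 of 909 and by 1020 of 1020. The exception has no symbol (ENSDARG00000088564) and is named here because of its values. It stood at 24.4, 12.1 and 13.8 CPM in Control and 16.9, 14.45 and 343 CPM in BaAQ. Its log2 fold change of 2.94 ± 0.75 was -0.045 without BaAQ 3, so that 1 library made the call.

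**Figure D1:**
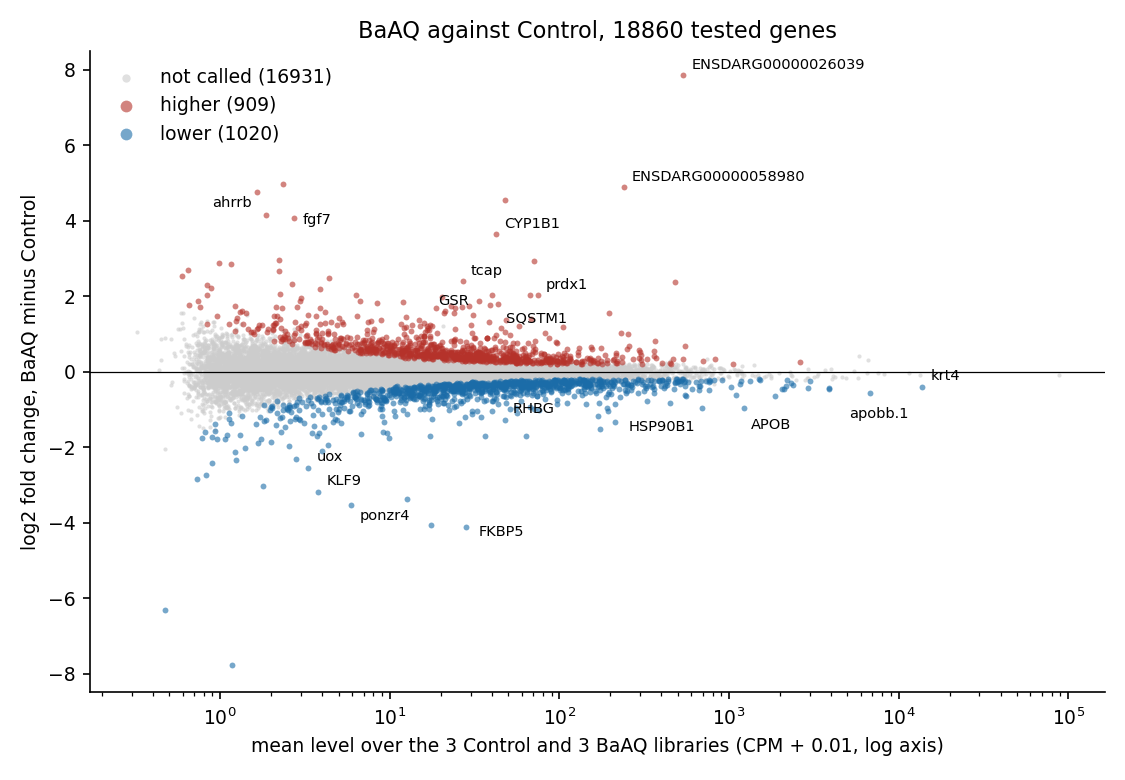
Log2 fold change of BaAQ over Control (vertical axis) against the mean level over the 6 libraries in CPM (horizontal, log axis) for the 18860 tested genes. Grey points did not pass, red points are the 909 genes that rose and blue points the 1020 that fell; ENSDARG00000026039 is the highest point, the lowest 2 points are genes without a symbol near 1 CPM, and FKBP5 and ponzr4 are the lowest of the labelled genes.

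The AHR genes ahrrb and CYP1B1 and the growth factor gene fgf7 had the largest rises in log2 fold change within a ranked set. That set was the genes with a symbol, at least 1 CPM on average and separate groups that also passed without BaAQ 3. CYP1B1, a monooxygenase that oxidises polycyclic aromatic compounds and steroids, stood at 6.04, 4.98 and 7.54 CPM in Control and 72.6, 82.0 and 79.4 CPM in BaAQ. Every BaAQ library was far above every Control library (log2 fold change 3.65 ± 0.12, adjusted p = 3.75e-14). The AHR repressor ahrrb stood at 0.212, 0.216 and 0.145 CPM in Control, at or under the floor, and at 3.38, 3.52 and 3.69 CPM in BaAQ. Some genes without a symbol rose further and are given by identifier, since neither the table nor the reference names them. ENSDARG00000026039 and ENSDARG00000058980 were singled out after their values were seen. ENSDARG00000026039 went from 4.56, 3.68 and 5.59 CPM to 1088, 1095 and 1011 CPM, and ENSDARG00000058980 from 15.4, 15.4 and 16.2 CPM to 439.6, 475 and 476 CPM. ENSDARG00000044671 was at 0.106, 0 and 0.290 CPM in Control, under the floor in 2 of 3 libraries, and at 6.07, 4.25 and 3.28 CPM in BaAQ. The 2 largest fitted falls also lack a symbol: ENSDARG00000086022 and ENSDARG00000090364 had no reads in any BaAQ library, but neither had any in 1 of the Control libraries, so the groups overlap and no fold is given.

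Of 5 listed CYP1 enzymes 2 were matched to an identifier and tested, so the rest could not be assessed by name. CYP1B1 rose, while the other matched gene did not pass and had a negative log2 fold change. Of the 5 receptors and partners 1 rose and 1 fell, while both repressors and 4 of 5 further targets rose. The receptor ahr2, which carries most of the dioxin response of zebrafish embryos, was at 119, 121 and 118 CPM in Control and 184, 186 and 193 CPM in BaAQ, without overlap and with little spread (log2 fold change 0.66 ± 0.062, adjusted p = 4.91e-07). The related receptor ahr1b (-0.17 ± 0.092, adjusted p = 0.264) and the dimerization partner arnt (0.25 ± 0.10, adjusted p = 0.143) did not pass. tiparp, an ADP-ribosyltransferase that dampens AHR signalling, rose from 28.5, 24.8 and 25.7 CPM to 50.9, 49.3 and 44.7 CPM. Of 14 tested AHR genes 8 rose and 1 fell, with a median log2 fold change of 0.77, and without BaAQ 3 the counts were 9 and 1. Over all tested genes 4.82% rose and 5.41% fell, and the 1 fall is near that share. The list was drawn up with these results known, and no identifier of the table was matched to CYP1A1, the classical AHR target, so no value is given under that name.

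Genes of the NRF2 response were among those that rose. GSR, which regenerates reduced glutathione, was at 14.2, 14.6 and 14.7 CPM in Control and 48.4, 52.0 and 58.8 CPM in BaAQ. The peroxidase prdx1 (ENSDARG00000058734) was at 35.3, 26.03 and 27.6 CPM and 123, 105 and 129 CPM. For both genes every BaAQ library lay above every Control library, with log2 fold changes of 1.87 ± 0.093 and 2.02 ± 0.10. The adaptors that mark NRF2 for destruction rose as well, KEAP1 from 21.8, 20.6 and 22.7 CPM to 39.9, 42.9 and 39.1 CPM and keap1a with a log2 fold change of 0.91 ± 0.11. The transcription factor's own gene NFE2L2 did not pass and overlapped with Control, at 76.4, 77.6 and 78.0 CPM in Control and 80.0, 85.1 and 76.8 CPM in BaAQ (0.059 ± 0.066, adjusted p = 0.650). Of 35 tested genes of this list 15 rose and 1 fell, against 4.82% and 5.41% of all tested genes, and the median was 0.23. Without BaAQ 3 the counts were 15 and 0, and the fall was also lost without BaAQ 2, Control 1 or Control 2.

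Some enzymes that attach groups to foreign compounds or reduce them rose. The sulfotransferase sult6b1 rose from 28.9, 26.5 and 24.0 CPM to 92.9, 108 and 119.8 CPM. The carbonyl reductase cbr1l rose from 18.2, 15.9 and 19.1 CPM to 55.6, 64.8 and 61.3 CPM, with no BaAQ library near the Control range. The glutathione transferase gsto2 (1.51 ± 0.11), the glucuronosyltransferase UGT1A1 (1.23 ± 0.12) and the exporter abcb5 (0.75 ± 0.073) also rose. In this group of 48 genes 14 rose and 4 fell, against 4.82% and 5.41% of all tested genes, and the median was 0.13. Without BaAQ 3 the counts were 11 and 3, and without BaAQ 2, 2 fell. Of its 13 glutathione transferases 5 rose and none fell, and 4 rose without BaAQ 3. Close copies in these enzyme families can share reads, so single members are uncertain.

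**Figure D2:**
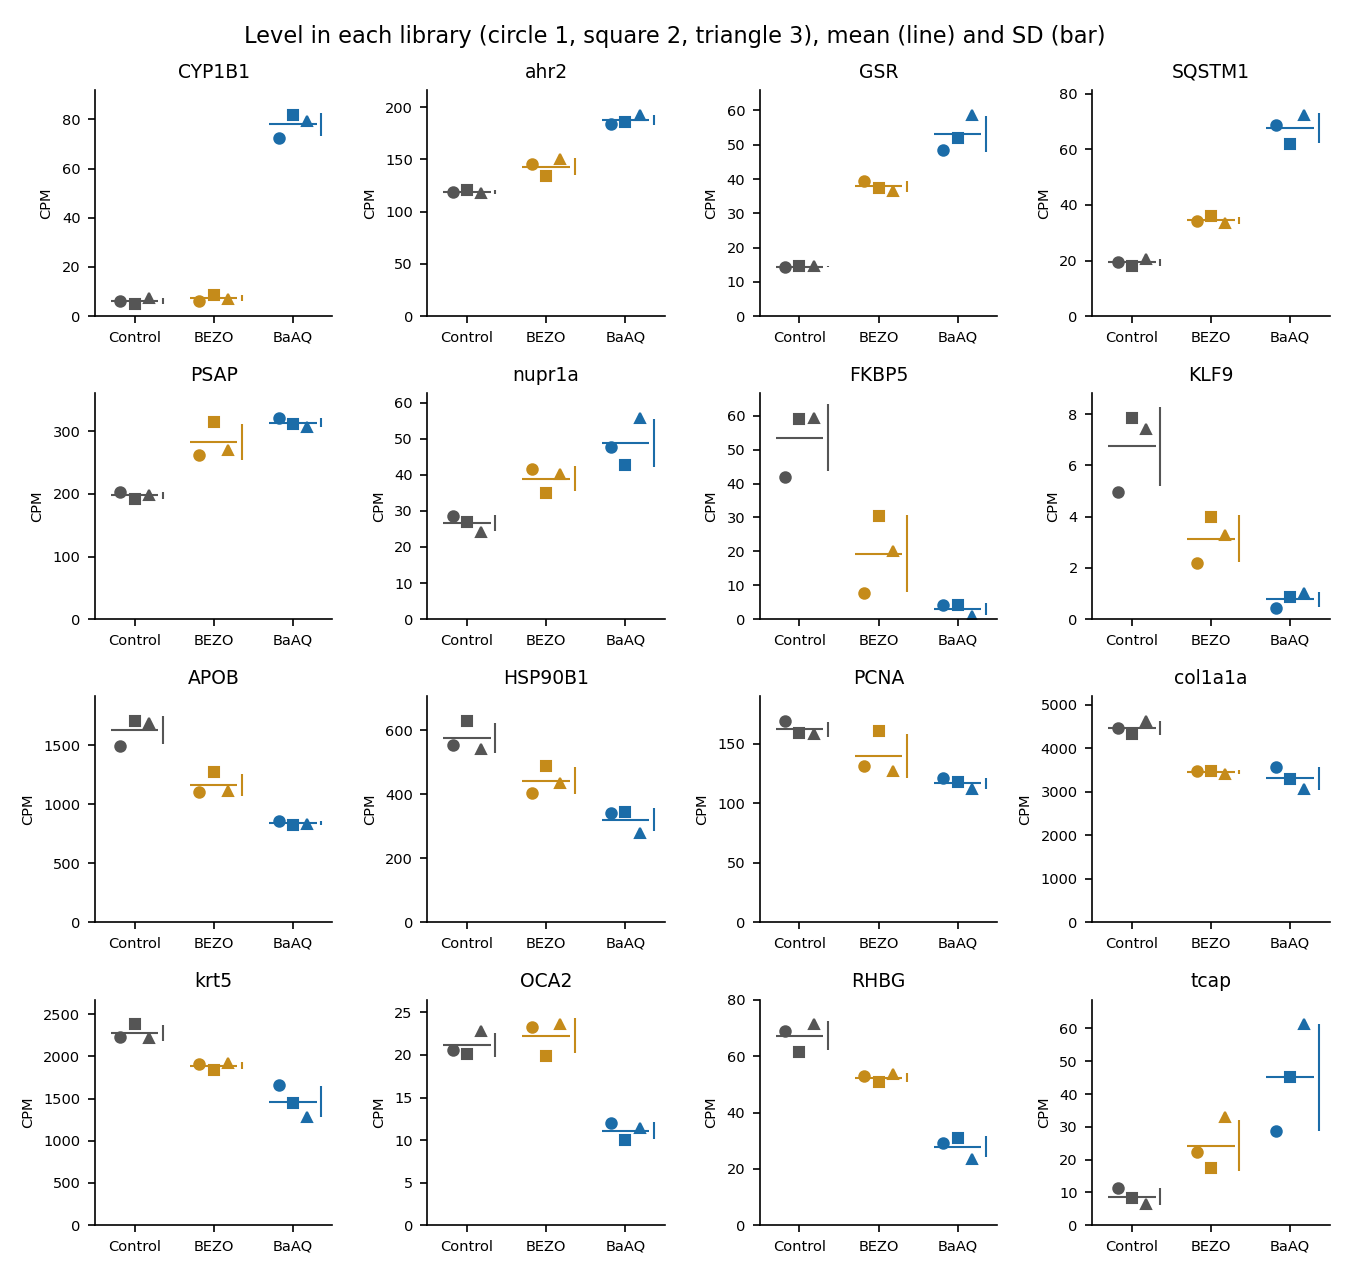
Level in each library in CPM (linear axis from 0) for 16 genes, with the groups side by side, circles, squares and triangles for replicates 1, 2 and 3, a line for the mean and a bar for the SD of 3 libraries. CYP1B1 is high in BaAQ alone, GSR and SQSTM1 step up from Control through BEZO to BaAQ, FKBP5 and KLF9 step down, and tcap spreads widely within BaAQ.

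Lysosome and autophagy genes make the acid hydrolases of the lysosome and the proteins that deliver cargo to it. Of 46 tested members 15 rose and none fell, against 4.82% of all genes, and the median was 0.22, against 0.0036. The autophagy receptor SQSTM1, also counted on the NRF2 list, was at 19.5, 18.1 and 20.6 CPM in Control and 68.6, 61.8 and 72.4 CPM in BaAQ. PSAP, the precursor of the saposins that help break down sphingolipids, was at 203, 192 and 198 CPM and 322, 311 and 308 CPM. The protease CTSD was at 193, 171 and 174 CPM and 257, 258 and 239 CPM. In each of these genes the BaAQ libraries were close together and above all Control libraries. The log2 fold changes were 1.803 ± 0.087 for SQSTM1, 0.66 ± 0.069 for PSAP and 0.49 ± 0.066 for CTSD.

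Further members had smaller rises or lower levels. MAP1LC3A, which coats autophagosomes, rose by 0.57 ± 0.083 on the log2 scale, and the acid ceramidase ASAH1 (ENSDARG00000034817) by 0.63 ± 0.11. The cathepsin gene ctsl.1, which is not on the list, rose from 1.27, 1.23 and 1.45 CPM to 7.72, 7.04 and 7.59 CPM. Its relative ctsla, with 731, 834 and 625 CPM in Control and 976, 902 and 900.5 CPM in BaAQ, passed by a small margin (adjusted p = 0.0496). The call was lost in 6 of the 9 fits that left out 1 library, among them the fit without BaAQ 3 (adjusted p = 0.0542). Without BaAQ 3, 11 members rose and none fell; leaving out any 1 library gave 11 to 17 rises.

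Regulators of the integrated stress response included several that rose. This response slows translation and turns on transcription factors that adjust amino acid supply and the handling of damaged proteins. Of 16 tested regulators 9 rose and none fell, against 4.82% of all tested genes that rose. The median was 0.43, and 7 rose without BaAQ 3. ATF3, one of these transcription factors, was at 9.01, 8.51 and 9.79 CPM in Control and 14.7, 23.7 and 25.3 CPM in BaAQ; BaAQ 1 was the lowest of its group but above all Control libraries. The stress-induced chromatin protein nupr1a went from 28.6, 27.0 and 24.2 CPM to 47.6, 42.7 and 55.8 CPM, and ppp1r15a, which restores translation, from 20.8, 21.6 and 23.2 CPM to 33.0, 31.3 and 33.3 CPM. The transcription factor CEBPB rose by 0.52 ± 0.094 on the log2 scale. Among the 27 enzymes and transporters of amino acids 3 rose, none fell and the median was 0.12; without BaAQ 3, 1 rose.

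Of 41 immediate early and AP-1 genes 8 rose and 3 fell, with a median of 0.22, and 8 and 2 without BaAQ 3. The falls are near the 5.41% of all tested genes that fell, while 4.82% of all tested genes rose. FOSL1, an AP-1 subunit, was at 0.636, 0.865 and 1.02 CPM in Control and 2.08, 5.46 and 5.85 CPM in BaAQ. All BaAQ libraries were above Control, with BaAQ 1 less so than the others (2.32 ± 0.36, adjusted p = 2.12e-04). maff, a small MAF factor that can pair with NRF2, rose from 30.9, 28.7 and 27.5 CPM to 47.5, 55.0 and 58.1 CPM. ATF3 belongs to both groups. The immediate early receptor NR4A1 fell, from 25.0, 28.1 and 25.0 CPM to 17.9, 16.4 and 16.0 CPM.

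Many chaperones of the endoplasmic reticulum (ER) fell. Of 26 folding genes 19 fell and none rose, against 5.41% of all genes, with a median of -0.52. Of 25 genes of translocation and degradation 6 fell, with a median of -0.13. HSP90B1, the ER form of HSP90, was at 555, 630.5 and 543 CPM in Control and 341, 344 and 278 CPM in BaAQ, with BaAQ 3 the lowest (-0.84 ± 0.085, adjusted p = 1.22e-06). The disulfide isomerase PDIA4 was at 138, 148 and 139.6 CPM and 86.1, 75.9 and 77.8 CPM. HYOU1, an exchange factor for the main ER chaperone, was at 115, 131 and 119 CPM and 75.2, 72.4 and 67.5 CPM. No library of BaAQ reached the Control range for these genes. Without BaAQ 3 the folding genes still gave 18 falls, while translocation and degradation gave 2, as they did without Control 3. The difference between the roles was not tested.

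Liver and yolk genes were counted as 1 list, and the list as a whole was not tested. Of 70 members 27 fell and 4 rose, with a median of -0.26, where 5.41% of all tested genes fell. The 4 rises are near the 4.82% of all tested genes that rose. Without BaAQ 3 the counts were 22 and 4. The 26 secreted proteins gave 12 falls and no rise, with a median of -0.36. APOB, a structural protein of lipoproteins, was at 1492, 1707 and 1688 CPM in Control and 859.8, 825 and 834 CPM in BaAQ. The related gene apobb.1 was at 7764, 8155 and 8553 CPM and 5553, 5033 and 5809 CPM. Both lay below Control in every library, with log2 fold changes of -0.96 ± 0.070 and -0.58 ± 0.074. The hormone precursor agt (-1.25 ± 0.10) and the iron carrier tfa (-0.61 ± 0.092) fell too. These are bulk libraries, in which fewer cells of a type and less RNA per cell cannot be told apart.

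Complement proteins are made largely by the liver. Of 20 genes of clotting and complement 9 fell and none rose, and 7 fell without BaAQ 3, where 5.41% of all tested genes fell. c4b was at 48.8, 54.7 and 40.3 CPM in Control and 19.6, 17.9 and 25.0 CPM in BaAQ. cfb was at 99.3, 102 and 108 CPM and 58.1, 66.0 and 62.3 CPM, and c3a.1 at 756, 828 and 759.8 CPM and 530.2, 545 and 592 CPM. The groups did not overlap for any of them. c3a.2 fell from 5.83, 4.25 and 3.92 CPM to 0.867, 0.850 and 1.03 CPM. Copies of C3 are alike and may share reads. The nuclear receptor NR0B2, which represses bile acid synthesis, rose from 11.02, 9.81 and 6.17 CPM in Control, with a log2 fold change of 1.69 ± 0.16 (adjusted p = 4.63e-07).

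In the 33 inflammation genes, which include c4b, 8 rose and 10 fell. The falls were stable, with 8 to 10 when any 1 library was left out. The rises were not: 4 were left without BaAQ 2, BaAQ 3 or Control 2, 5 without Control 1 and 3 without Control 3. The list also holds some of the largest falls, the onzin-related genes ponzr4 and ponzr3. Both count among the 10 falls, and the list was chosen with earlier results of these data known. ponzr4 was at 27.8, 34.04 and 37.1 CPM in Control and 2.95, 1.09 and 1.64 CPM in BaAQ. ponzr3 was at 21.1, 24.2 and 23.8 CPM and 2.77, 1.70 and 2.05 CPM, again with a wide gap. Among 28 myeloid markers 2 rose and 4 fell, but no marker fell without BaAQ 3, 2 without Control 1 or Control 2 and 1 without Control 3. Over all tested genes 4.82% rose and 5.41% fell, and the myeloid rises are near that share.

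FKBP5 is a cochaperone of the glucocorticoid receptor that glucocorticoids induce. It had the largest fall among genes with a symbol, at least 1 CPM on average and separate groups that also passed without BaAQ 3. It was at 42.1, 59.13 and 59.4 CPM in Control and 4.08, 4.13 and 1.03 CPM in BaAQ, the lowest in BaAQ 3. The log2 fold change was -4.12 ± 0.37 (adjusted p = 2.24e-07) and -3.71 without BaAQ 3. KLF9, a transcription factor that glucocorticoids also induce, was at 4.98, 7.86 and 7.4 CPM and 0.434, 0.850 and 1.03 CPM. The receptor NR3C1 was at 63.2, 72.9 and 65.9 CPM and 80.2, 71.9 and 81.8 CPM, which overlap (0.21 ± 0.077, adjusted p = 0.0892). HSD11B2, which inactivates cortisol, fell, with a log2 fold change of -0.82 ± 0.10 (adjusted p = 1.70e-05). Of 21 genes on the glucocorticoid list 5 fell and 2 rose, with a median of -0.24, where 5.41% of all tested genes fell and 4.82% rose. Without BaAQ 3, 6 fell and 3 rose, and with library totals alone 4 rose. The 14 targets among them did not share one direction. Of these 3 fell and 2 rose, 7 values were positive and 7 negative, and the median was -0.12. Without BaAQ 3, 4 targets fell and 3 rose.

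The skin gave unequal changes. Of 17 keratin genes 7 fell and 1 rose, with a median of -0.32, and the counts were 7 and 2 without BaAQ 3. The 1 keratin that rose was krt18b, named after its value was seen. krt4, an abundant keratin of the outer layer, was at 16030, 15100 and 15780 CPM in Control and 12580, 12070 and 10890 CPM in BaAQ. krt5, a keratin of basal cells, was at 2226, 2389 and 2218 CPM and 1656, 1453 and 1284 CPM. BaAQ 3 was lowest in both and no library overlapped with Control. The keratins krt15 (-1.02 ± 0.11) and krt1-19e (-0.97 ± 0.080) fell most. Keratin genes form families of close copies, and reads may be split among them. Of 25 junction and other skin genes 2 rose and 1 fell, with a median of 0.096. These counts are near the shares of all tested genes, 4.82% for rises and 5.41% for falls. With library totals alone 6 rose. evpla, an envoplakin that links keratin filaments to junctions, rose from 131, 119.7 and 118 CPM to 163, 193 and 205 CPM.

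Ionocytes, the skin cells that exchange ions and ammonia with water, had falls among their transport genes. The ammonia channel RHBG was at 69.0, 61.5 and 71.5 CPM in Control and 29.1, 31.0 and 23.6 CPM in BaAQ. The sodium chloride cotransporter slc12a10.2 was at 5.62, 7.93 and 5.66 CPM and 0.954, 2.31 and 1.44 CPM. The carbonic anhydrase ca2 was at 184, 179 and 188 CPM and 98.7, 105 and 102 CPM. All BaAQ libraries were below all Control libraries for these genes, with log2 fold changes of -1.27 ± 0.093, -2.097 ± 0.27 and -0.85 ± 0.060. RHCG (ENSDARG00000003203) also fell (-3.53 ± 0.58), from 9.22, 14.8 and 8.71 CPM in Control to 1.82, 0.364 and 0.410 CPM in BaAQ. BaAQ 2 was at the floor and BaAQ 3 near it, so the size of this fall is uncertain. Over the libraries left out it ran from -4.78 to -3.18. Of 47 genes 9 fell and 2 rose, where 5.41% of all tested genes fell and 4.82% rose. The rises are near that share, and leaving out any 1 library other than BaAQ 3 left 1 rise. None of the 7 regulators of ionocyte fate passed.

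All 24 tested collagens had a negative fold change, 14 fell, none rose, and the median was -0.36. Without BaAQ 3, 12 fell, where 5.41% of all tested genes fell. col1a1a, a chain of type I collagen, was at 4454, 4313 and 4629 CPM in Control and 3563, 3299 and 3049 CPM in BaAQ. COL1A2 was at 2447, 2380 and 2553 CPM and 2034, 1931 and 1707 CPM. col17a1a, a collagen that anchors basal skin cells, was at 238, 229 and 229 CPM and 160.4, 148 and 128 CPM. The 3 genes share one order, in which BaAQ 3 is lowest and BaAQ 1 highest of the BaAQ libraries and all are below Control. Among glycoproteins and proteoglycans 9 of 23 fell and 1 rose, with vcanb at -0.58 ± 0.073. The collagenase mmp13a, against this, rose from 1.06, 1.01 and 1.81 CPM to 3.99, 4.61 and 4.41 CPM.

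Of 24 cartilage matrix genes 14 fell and none rose, with a median of -0.35; without BaAQ 3, 13 fell and 2 rose, with a median of -0.26. COL10A1, a collagen of maturing cartilage and bone, was at 82.8, 74.2 and 72.5 CPM in Control and 38.2, 39.6 and 29.0 CPM in BaAQ. The aggrecan acana was at 46.7, 43.9 and 48.4 CPM and 28.4, 27.6 and 26.9 CPM, below Control in every library. Of 19 regulators of cartilage and bone 1 fell and none rose, with a median of 0.032. That is 5.26% of them, near the 5.41% of all tested genes that fell. The regulator that fell was SOX9 (ENSDARG00000043923), whose call (-0.29 ± 0.078, adjusted p = 0.0182) ended without BaAQ 2, without Control 2 and with library totals alone. The other copy, ENSDARG00000003293, did not pass (-0.22 ± 0.080, adjusted p = 0.0885).

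**Figure D3:**
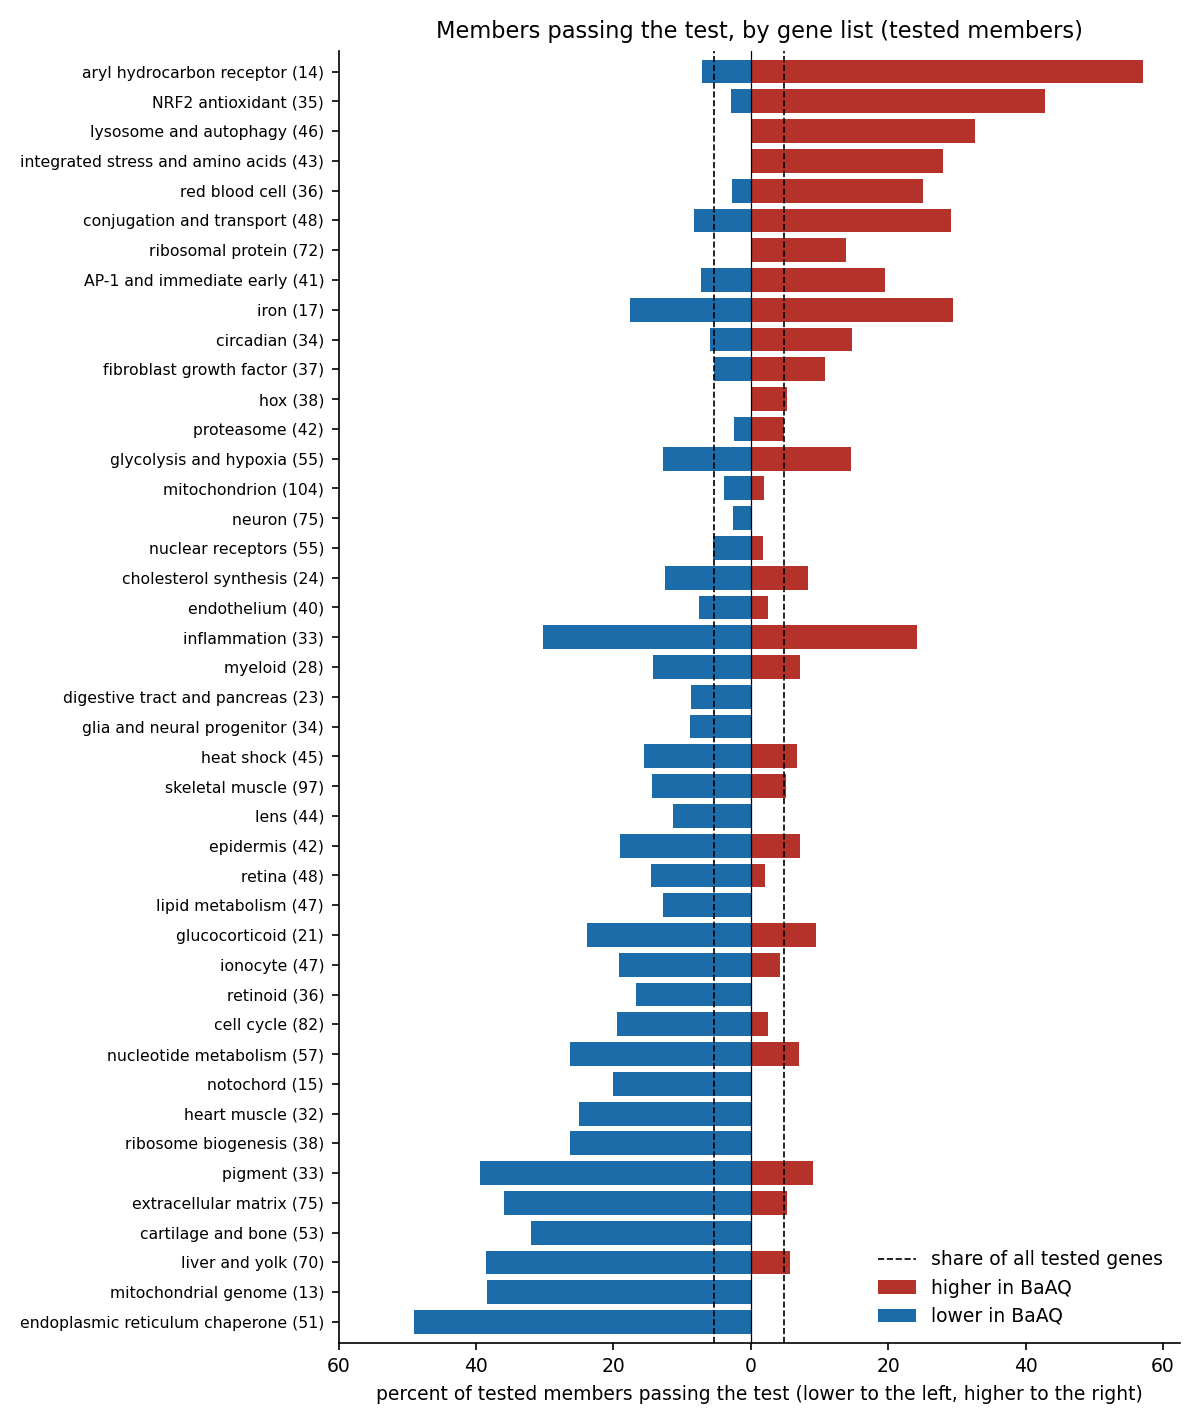
Percent of the tested members of each gene list that rose (red, to the right) or fell (blue, to the left) in BaAQ, with the number tested in brackets. Dashed lines mark the shares of all tested genes, 4.82% to the right and 5.41% to the left; the AHR and NRF2 lists reach furthest to the right and the ER chaperones furthest to the left.

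Of 18 genes of the black melanophores 9 fell and 1 rose, with a median of -0.33. Over all tested genes 5.41% fell and 4.82% rose, and the 1 rise is near that share. Without BaAQ 3, 7 fell, and the rise was lost without BaAQ 2 or Control 3. OCA2, a melanosome transporter, was at 20.6, 20.1 and 22.8 CPM in Control and 12.0, 9.96 and 11.4 CPM in BaAQ. TYRP1 (ENSDARG00000029204), an enzyme of melanin synthesis, was at 47.2, 51.5 and 52.8 CPM and 31.1, 31.6 and 25.8 CPM, again without overlap. Of 15 genes of yellow and reflecting pigment cells 4 fell and 2 rose. PAICS, an enzyme of purine synthesis, rose from 324, 291 and 316 CPM to 452, 392 and 402 CPM, while pnp4a, a purine nucleoside phosphorylase of reflecting cells, fell from 32.5, 26.4 and 30.1 CPM to 17.2, 18.5 and 15.8 CPM.

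Of 57 genes of nucleotide metabolism 15 fell and 4 rose, with a median of -0.18. Over all tested genes 5.41% fell and 4.82% rose, and the 4 rises are near that share. Without BaAQ 3 the counts were 10 and 3, and without Control 2 there were 8 falls and without Control 1 there were 2 rises. uox, which oxidises uric acid, fell from 6.04, 6.06 and 4.79 CPM to 0.954, 1.21 and 0.718 CPM. IMPDH1 (ENSDARG00000029524), for the committed step to guanine nucleotides, fell as well, with a log2 fold change of -0.34 ± 0.063. nt5c2l1, a nucleotidase gene also placed on the red blood cell list, rose from 12.1, 10.7 and 11.7 CPM to 41.4, 44.7 and 25.0 CPM, where BaAQ 3 was lower than the other 2 but above Control.

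Of 37 DNA replication genes 10 fell and none rose, against 5.41% of all tested genes that fell. The median was -0.28 with 35 negative values, and without BaAQ 3, 8 fell. PCNA, the sliding clamp of DNA polymerase, was at 169, 159 and 158 CPM in Control and 121, 118 and 112 CPM in BaAQ. The helicase subunit MCM6 (ENSDARG00000057683) was at 90.9, 93.2 and 106 CPM and 70.34, 65.6 and 55.8 CPM. The groups were separate for both. MCM5, at -0.62 ± 0.14, lost its call without Control 3. Mitosis genes gave 5 falls among 30, but the count was lower in every fit that left out a library. It was 1 without BaAQ 2 or BaAQ 3, 2 without Control 1, 3 without Control 3 or BEZO 1, and 0 without Control 2 or with library totals alone.

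Some genes of ribosome assembly fell and some of ribosomal proteins rose, and neither count was stable. Of 38 nucleolar genes of ribosome assembly 10 fell (against 5.41% of all genes) and none rose, with a median of -0.19. There were 5 falls without BaAQ 1, 3 without Control 2, 4 without Control 3 and 6 with library totals alone. RRS1 was at 29.4, 30.0 and 29.7 CPM in Control and 21.2, 22.5 and 20.5 CPM in BaAQ. Of 72 ribosomal protein genes 10 rose (against 4.82% of all genes) and none fell, with a median of 0.075. Their summed level was 28440 to 30050 CPM in Control and 32320, 31600 and 27230 CPM in BaAQ. Without BaAQ 3 there were 25 rises, while there were 3 without BaAQ 1 or Control 3, 4 without BaAQ 2 and 6 without Control 2; library totals alone gave 16. RPL39 was at 139.5, 123 and 139.8 CPM and 190.5, 174 and 149 CPM, with BaAQ 3 nearest to Control.

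Of 36 red blood cell genes 9 rose and 1 fell, with a median of 0.083, and the counts were 9 and 1 without BaAQ 3. Over all tested genes 4.82% rose and 5.41% fell. ALAS1, which starts heme synthesis, was at 54.6, 56.8 and 50.6 CPM in Control and 84.9, 89.0 and 83.3 CPM in BaAQ. The embryonic globin hbbe3 was at 24.4, 26.4 and 24.6 CPM and 50.1, 42.6 and 35.5 CPM, with BaAQ 3 the lowest of its group. The summed level of the list was 1839 to 1851 CPM in Control and 2146, 2154 and 1739 CPM in BaAQ, with BaAQ 3 below Control. Most of that gap lay in the globin hbae3, named after its values were seen, at 810.0, 820.2 and 525 CPM in BaAQ; it did not pass. Of 17 iron genes 5 rose and 3 fell, and 3 rose without Control 3. The ferritin gene fthl27 rose from 53.0, 53.7 and 55.1 CPM to 97.2, 122 and 112 CPM. HEPH, a ferroxidase for iron export, fell from 11.02, 16.2 and 12.6 CPM to 5.46, 4.86 and 5.54 CPM.

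Retinoid genes gave 6 falls and no rise among 36, where 5.41% of all tested genes fell and 4.82% rose. LRAT, which stores vitamin A as esters, was at 6.14, 7.499 and 6.46 CPM in Control and 3.38, 3.40 and 2.87 CPM in BaAQ. The binding protein RBP2 (ENSDARG00000093774) was at 55.1, 55.7 and 51.4 CPM and 26.3, 26.1 and 25.6 CPM. ALDH1A2, which makes retinoic acid, was at 66.1, 64.9 and 62.8 CPM and 47.0, 45.3 and 40.1 CPM. BaAQ lay below Control throughout. None of the 10 retinoic acid receptor genes and none of the 3 genes of retinoic acid breakdown passed. Photoreceptor genes of the retina fell in 6 of 23 cases, among them ARR3 (-0.52 ± 0.12), and in 5 without BaAQ 3. Of 44 lens genes 5 fell and none rose, but without BaAQ 3 there was 1 fall and 1 rise, without Control 1 or Control 2 there were 2 falls, and with library totals alone 3.

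Fibroblast growth factor signalling held 1 large change. fgf7, a secreted growth factor for epithelia, was at 0.212, 0.433 and 0.218 CPM in Control, near the floor, and at 5.81, 4.86 and 4.72 CPM in BaAQ. The call did not depend on any single library (4.07 ± 0.33, adjusted p = 5.50e-08). Of the 18 ligands tested it was the 1 that passed. As a count this is 5.56% of the ligands, near the 4.82% of all tested genes that rose. Among 19 receptors and feedback genes 3 rose and 2 fell, with 1 fall left without BaAQ 2, BaAQ 3, Control 2 or Control 3. Among them was etv5b, a target of the pathway, which rose from 41.9, 38.9 and 39.8 CPM to 58.5, 52.7 and 48.8 CPM. A further low gene, pth1a for a parathyroid hormone, went from 0.424, 0.216 and 0.218 CPM to 1.56, 1.70 and 2.77 CPM.

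Few proteasome genes passed, and those that did were genes of activators. PSME2 was at 2.01, 2.45 and 2.32 CPM in Control and 5.12, 5.58 and 5.85 CPM in BaAQ, and PSME1 at 0.954, 1.23 and 1.09 CPM and 3.21, 1.82 and 5.54 CPM. PSME3, the nuclear activator, fell from 45.8, 48.0 and 47.6 CPM to 35.99, 32.9 and 33.0 CPM. These 3 were the genes that passed among 42 proteasome genes, whose median was -0.085. Of 61 nuclear genes of the respiratory complexes I to IV 2 rose and none fell, with a median of 0.0059. That is 3.28% of them, under the 4.82% of all tested genes that rose. No rise was left without BaAQ 1, BaAQ 2, Control 2 or Control 3, and 1 without BEZO 2 or BEZO 3. Of 13 genes of the mitochondrial genome 5 fell and none rose, with MT-ND1 going from 2702, 2737 and 2583 CPM to 2085, 2167 and 2069 CPM. That count was 3 without BEZO 3, which enters the shared spread, and 3 with library totals alone.

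Single metabolic genes changed in both directions. Over all tested genes 4.82% rose and 5.41% fell. The clock falls, and the gut and pancreas falls where 1 was left, were near that share. Of 24 genes of the hypoxia response 5 rose and 1 fell, and of 32 glycolysis genes 3 rose and 6 fell. The 1 hypoxia fall was lost without BaAQ 1, BaAQ 2, Control 1 or Control 3. Over both, the 8 rises became 5 without BaAQ 1 or Control 3, 4 without BaAQ 2 and 3 without Control 2. The glucose transporter slc2a3a rose from 33.0, 30.9 and 33.6 CPM to 50.8, 52.9 and 49.2 CPM, while the regulator PFKFB4 fell from 56.4, 63.3 and 66.3 CPM to 33.5, 35.7 and 35.3 CPM. CYP2R1, which starts vitamin D activation, fell from 6.14, 7.14 and 7.11 CPM to 1.65, 2.67 and 1.13 CPM. ETNPPL, which breaks down phosphoethanolamine, fell from 15.05, 15.9 and 14.7 CPM to 4.68, 3.76 and 4.82 CPM. Of 47 genes of lipid oxidation and synthesis 6 fell and none rose, both with all libraries and without BaAQ 3. Of 34 clock genes 5 rose and 2 fell, with 3 rises without Control 2 or Control 3 and 1 fall without Control 3. Among them nr1d2a, a repressor of the clock, fell from 24.9, 29.2 and 26.3 CPM to 16.0, 13.6 and 15.2 CPM. VIL1, a microvillus protein of the intestine, fell from 5.19, 4.76 and 5.80 CPM to 1.65, 2.19 and 1.33 CPM, and it was 1 of 2 falls among 23 genes of gut and pancreas, of which 1 was left without BaAQ 2, BaAQ 3, BEZO 1 or any Control library.

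Few neural genes passed. None of 43 synapse and transmitter genes passed, and their median was 0.00037. Of 32 general neuronal genes 2 fell, the tubulins tubb5 and TUBA1A, and TUBA1A lost its call without Control 3. tubb5 was at 875, 934 and 882 CPM in Control and 650.3, 640.4 and 613 CPM in BaAQ. Of 34 glial and progenitor genes 3 fell and none rose. Endothelial markers gave 1 rise and 3 falls among 40, with 1 fall without Control 1 or Control 3. The rise was lost without BaAQ 1 or Control 2, and without Control 1 there were 2. Of 38 hox genes 2 rose, and leaving out any Control or BaAQ library left 1. The general neuronal, endothelial and hox counts are near the shares of all tested genes, 4.82% for rises and 5.41% for falls. Of 15 notochord genes 3 fell. Of 7 hatching gland genes 2 rose, and 1 without BaAQ 2, Control 2 or Control 3. A p that misses the threshold does not show that these genes did not differ.

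**Figure D4:**
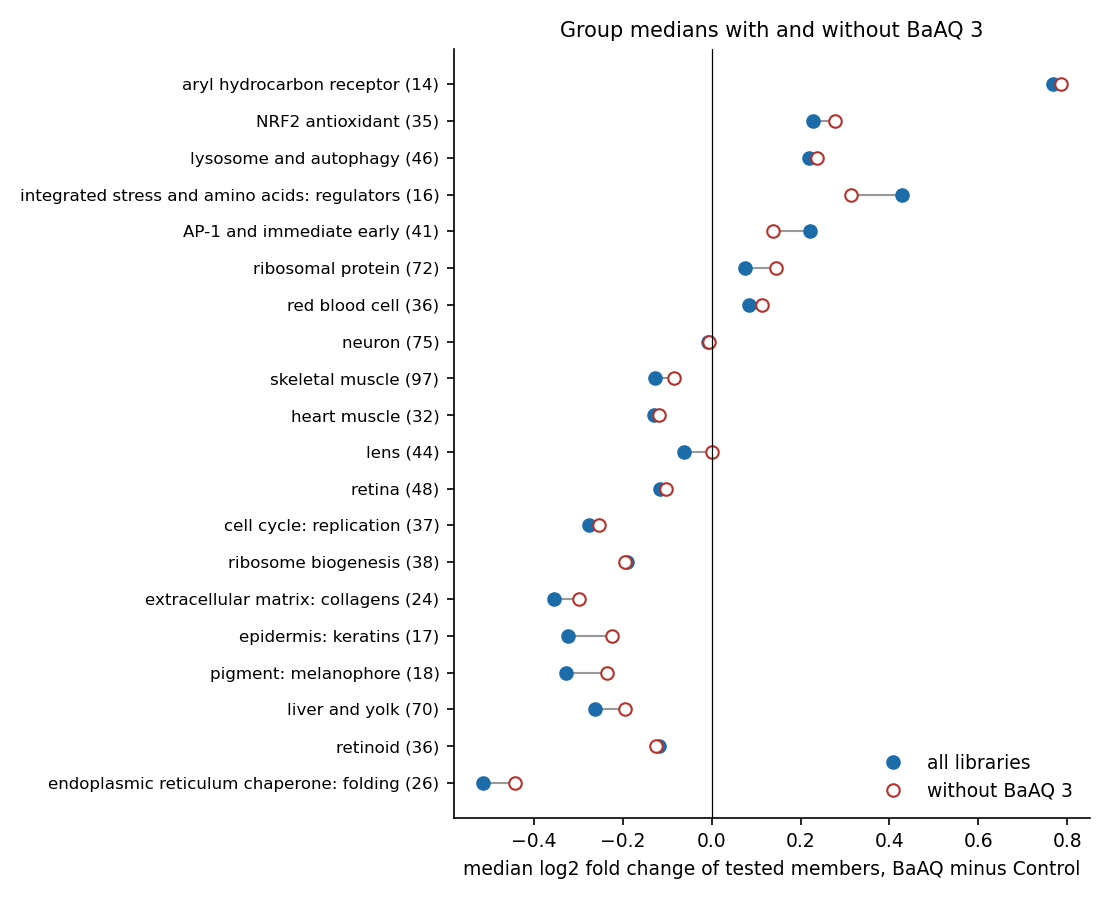
Median log2 fold change of the tested members of 20 gene groups, BaAQ minus Control, with all libraries (filled) and without BaAQ 3 (open); the number tested is in brackets. Of the groups drawn, the lens median moves from -0.06 to 0 and the others keep their side of 0; among lists not drawn, the medians of inflammation (-0.05 to 0.07), the mitochondrion (-0.05 to 0.02), and glycolysis and hypoxia (-0.01 to 0.05) changed sign, as did that of glia and neural progenitors (0.0013 to -0.03).

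Muscle genes were among those in which BaAQ 3 departed from its group. The giant sarcomere protein titin has 2 genes in the table. TTN (ENSDARG00000000563) was at 4872, 5073 and 5178 CPM in Control and 4822, 4704 and 10490 CPM in BaAQ. TTN (ENSDARG00000028213) was at 5719, 5983 and 5966 CPM and 5618, 5633 and 10590 CPM. In both, BaAQ 3 was far above the 5 other libraries, which lay close together. Neither passed, and without BaAQ 3 the log2 fold changes were -0.081 and -0.066.

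Alpha actin genes of muscle went opposite ways in that library. actc1c was at 28.1, 27.0 and 23.9 CPM in Control and 15.09, 16.5 and 80.9 CPM in BaAQ, and actc1a at 175, 189 and 200.5 CPM and 203, 206 and 107 CPM. Without BaAQ 3, actc1c fell (-0.74, adjusted p = 0.0218), although its value over all libraries was 0.52. These copies may share reads. NARS1, which charges asparagine transfer RNA, was at 174, 164 and 336 CPM in BaAQ, KLHL2 at 12.1, 11.1 and 29.6 CPM and DOCK4 (ENSDARG00000076213) at 20.6, 22.1 and 42.9 CPM, each highest in BaAQ 3. TMEM167A broke the pattern, with BaAQ 2 at the Control level and the others low (12.6, 43.1 and 10.8 CPM against 42.3, 39.95 and 48.3 CPM in Control). It passed with all libraries (adjusted p = 0.0253) but not without BaAQ 1, BaAQ 3 or any Control library. What sets BaAQ 3 apart was not tested.

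**Figure D5:**
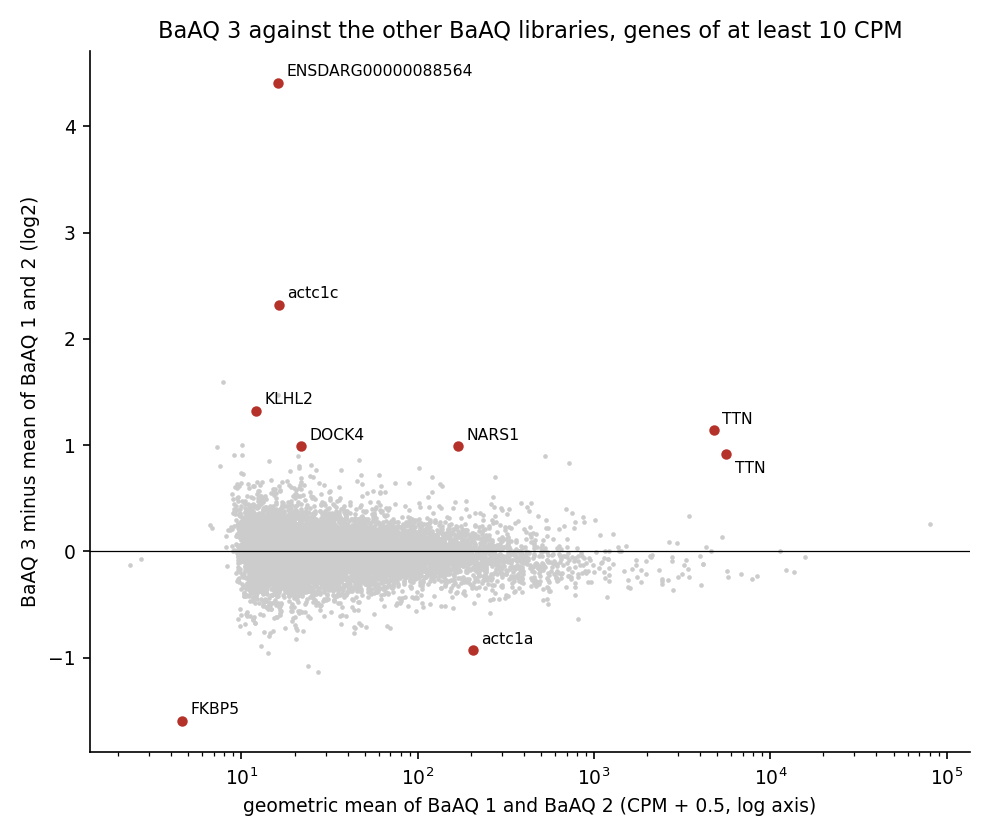
Difference of BaAQ 3 from the mean of BaAQ 1 and BaAQ 2 on the log2 scale (vertical axis) against that mean (horizontal, log axis, CPM + 0.5) for 10166 genes of at least 10 CPM. Named points are genes with large differences; the 2 TTN points stand alone at high level, and ENSDARG00000088564 lies highest.

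More skeletal muscle genes fell than rose. Of 97 skeletal muscle genes 14 fell and 5 rose, with a median of -0.13, and without BaAQ 3 the counts were 11 and 6. The 5 rises are near the 4.82% of all tested genes that rose. There were 3 rises without Control 2, Control 3 or BEZO 3, and 8 with library totals alone. The fast myosin myhz1.3 was at 4209, 4924 and 4377 CPM in Control and 3361, 3269 and 3125 CPM in BaAQ. The actin ACTA1 (ENSDARG00000055618) was at 3354, 3423 and 3339 CPM and 2654, 2594 and 2179 CPM. hsp90aa1.1, the chaperone that folds muscle myosin, fell from 215, 257 and 284 CPM to 151, 135 and 100.2 CPM. Against this, tcap, the titin cap of the Z disc, rose from 11.4, 8.22 and 6.53 CPM to 28.8, 45.0 and 61.5 CPM, with wide spread but no overlap (2.395 ± 0.25, and 2.097 without BaAQ 3). A small heat shock gene, hspb9, rose from 35.0, 27.11 and 22.1 CPM to 45.9, 69.1 and 72.3 CPM. Of 45 cytosolic heat shock genes 7 fell and 3 rose, against 3 and 2 without BaAQ 3, and 4 fell without Control 3. The rises, and the falls left without BaAQ 3, are near the shares of all tested genes, 4.82% for rises and 5.41% for falls.

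Of 32 heart muscle genes 8 fell and none rose, with a median of -0.13, where 5.41% of all tested genes fell. MYBPC3, a cardiac myosin binding protein, was at 138, 152 and 145 CPM in Control and 123, 116 and 112 CPM in BaAQ. The heart myosin MYH6 (ENSDARG00000079564) was at 121, 134 and 123 CPM and 109.7, 93.4 and 100.1 CPM. The groups were separate but near each other. The count was 6 without BaAQ 3, 5 without Control 1 or with library totals alone, and 4 without BaAQ 2 or Control 2. The summed level of the list, 11800 to 12380 CPM in Control, was 11600, 11480 and 22130 CPM in BaAQ, since it contains titin.

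BaAQ was set against BEZO at the same dose and time to test where the quinone differed from the ketone. There were 483 genes higher in BaAQ than in BEZO (2.56% of those tested) and 429 lower (2.27%). Without BEZO 2 there were 287 and 244, and the lower genes numbered 273 without BaAQ 3 and 274 without BEZO 3. Of the genes that rose over Control 190 were also higher than in BEZO and 15 were lower. Of those that fell, 236 were also lower than in BEZO and 15 were higher. These tests share the BaAQ libraries with the comparison above.

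Single genes with large rises over Control differed from BEZO. The AHR target CYP1B1 was at 6.36, 8.62 and 7.04 CPM in BEZO, inside or just above the Control range, and BaAQ exceeded it by 3.41 ± 0.12 on the log2 scale (adjusted p = 1.23e-13). fgf7 was at 0.167, 0.185 and 0.408 CPM in BEZO and differed by 4.33 ± 0.35. ENSDARG00000026039 was at 17.4, 16.6 and 15.2 CPM in BEZO, and the difference was 6.02 ± 0.092. nt5c2l1, at 8.70, 9.54 and 8.68 CPM in BEZO, was higher in BaAQ by 2.04 ± 0.17.

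On the NRF2 list, GSR was at 39.6, 37.4 and 36.5 CPM in BEZO, and BaAQ was higher by 0.48 (95% interval 0.31 to 0.66, adjusted p = 0.00123). SQSTM1 was at 34.1, 35.96 and 33.5 CPM, and BaAQ was higher by 0.97 ± 0.083. Among the falls, FKBP5 was at 7.69, 30.3 and 20.0 CPM in BEZO, with a wide spread between Control and BaAQ, and BaAQ was lower still (-2.63 ± 0.41, adjusted p = 3.75e-04). Complement c4b was at 63.7, 62.2 and 57.4 CPM in BEZO, above all Control libraries, and BaAQ differed by -1.55 ± 0.12. OCA2, at 23.2, 19.9 and 23.7 CPM in BEZO, differed by -0.99 ± 0.11. The crystallin crygm2d11 went the other way, since BEZO was at 1.84, 2.22 and 2.76 CPM, BaAQ at 12.0, 13.6 and 10.16 CPM and Control at 27.3, 20.1 and 19.6 CPM.

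Some genes changed against Control without passing between the compounds. ATF3 was at 17.5, 24.6 and 22.4 CPM in BEZO, and the difference of -0.031 had a 95% interval from -0.36 to 0.30. For NR0B2 the interval ran from -0.21 to 0.38, for col1a1a from -0.20 to 0.076, and for tubb5 from -0.083 to 0.16. PSAP gave 0.010 to 0.29 with an adjusted p of 0.239. A missed threshold does not show that the compounds act alike on these genes. PAICS, which rose in BaAQ, was higher still in BEZO, at 526, 589.7 and 531 CPM (-0.40 ± 0.070, adjusted p = 0.00111).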

How the data were processed

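RNA of whole embryos was sequenced from poly-A selected libraries made with ScriptSeq v2, with RNA integrity numbers above 9 per the labels' protocols. The authors deposited raw read counts per Ensembl gene for 9 libraries, without normalization. The submitters' processing notes name CASAVA 1.8, FastQC, TopHat2, HTSeq, edgeR and the build Zv9, with no order or options. Whether counting used strand is not given in the sources used here, so reads of overlapping and antisense genes cannot be told apart.

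Counts were filtered with filterByExpr, scaled by TMM and tested with edgeR 4.0.16 (glmQLFit, glmQLFTest) in R 4.3.3 on all 9 libraries with 3 group means, which left 6 residual degrees of freedom. The biological coefficient of variation was 7.23%. Floors and intervals cover counting error or the spread between these samples only. On simulated counts for 18656 genes the BaAQ comparison recovered 60.6% of 1.5-fold, 84.6% of 2-fold and 97.0% of 4-fold changes. These rates rest on 66, 65 and 66 changed genes, and 5.92% of the calls were false. Far fewer genes were changed there than passed in the data, so the rates need not hold for the comparison itself.

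Symbols came from reference gene tables by identifier; 3717 tested genes (19.7%) had none. Of 2287 listed gene names 1932 were matched, and capital symbols can take in further copies. The members and lists were chosen with earlier results of these data known. Genes were named by rule. The 15 largest rises and falls by fold were taken among genes with a symbol and at least 1 CPM on average. Their groups were separate, and they also passed without BaAQ 3. Up to 5 members per list with the smallest p were added, and AHR, NRF2 and glucocorticoid genes of interest. The rest were the 10 largest CPM changes each way, the 10 largest departures of BaAQ 3, and the 2 largest changes each way without a symbol. A few further genes were named after their values were seen. Alternatives were each library left out, other scalings and filters, DESeq2 1.42.0, a 2-group fit and a replicate block. A stricter threshold and a test against a 1.5-fold change were also used. The numbers of the replicates did not pair the samples.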

Additional observations from a re-analysis of the deposited data

How the results depend on the processing

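Against Control, median-of-ratios scaling, the strict filter, DESeq2, the 2-group fit and the replicate block kept the counts of 909 higher and 1020 lower genes within 1.5 times. The replicate numbers, whose deviations correlated at most 0.029, gave 891 higher and 1025 lower genes as a block, and 448 and 391 against BEZO. Library totals alone gave 1352 and 742, and no filter gave 1117 and 1355. A threshold of 0.01 gave 449 and 529, and against BEZO 230 and 179. A test against a 1.5-fold change gave 84 and 56, and against BEZO 66 and 19. Without the filter 718 genes were higher and 671 lower than in BEZO. Leaving out single libraries gave 567 to 932 higher and 696 to 1060 lower genes, and 287 to 480 and 244 to 403 against BEZO. Without BaAQ 3 some log2 fold changes changed sign, and over the libraries left out they ran from -0.27 to 0.12 for actc1a, -0.43 to 0.40 for KLHL2, -0.12 to 0.47 for NARS1, -0.037 to 0.59 for DOCK4 (ENSDARG00000076213), -0.081 to 0.60 and -0.066 to 0.46 for TTN (ENSDARG00000000563 and ENSDARG00000028213), and -0.74 to 0.92 for actc1c. The cause was not tested. Counting limits weakly expressed genes, and 3 libraries a group limit small changes. Promoter motifs were not examined.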
